A study of Mus musculus with 6 samples.

Results

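The genes of unknown function F630040K05Rik, Gm15283, Gm9869, AI661453 and Gm29683 were described in RNA-Seq of embryonic mouse cortex, as 5 of the 17068 genes in the count table. They were chosen by their higher level in the libraries labelled Foxp1cKO and, for some of them, by a position near Vegfa or Hif1a. Their fold changes between the groups are therefore descriptions and carry no test. The 6 libraries came from lateral cortex of female c57/bl6 embryos at embryonic day 12.5. Controls 1, 2 and 4 were Foxp1 fl/+, control 3 was Foxp1 fl/fl, and all 4 controls were Cre negative. The 2 libraries labelled Foxp1cKO were Foxp1 fl/fl;Emx1Cre, in which Cre is made in progenitors of the dorsal telencephalon, so that blood vessels, blood and cells of ventral origin keep the gene. A floxed Foxp1 allele was thus shared by every library. No label named a litter, and the p-values below measure the spread between these embryos.

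Long noncoding RNAs are spliced and capped like messenger RNAs but are not translated into a known protein. Intergenic ones (lincRNAs) lie between coding genes, and antisense ones lie across a coding gene on the opposite strand. The response to low oxygen is driven by the transcription factor HIF-1, whose alpha subunit is encoded by Hif1a and is controlled mainly through the stability of its protein. Prolyl hydroxylases such as Egln1 and Egln3 mark that subunit for destruction when oxygen is present. HIF-1 binds the core letters ACGTG or GCGTG and raises genes of glycolysis, of oxygen supply and of vessel growth, among them Vegfa, the growth factor that draws endothelial cells.

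The sequences around the starts of the genes are shown because, for some of the genes, position was part of the choice. RefSeq (GRCm38.p6) held a promoter, from 250 bases before the start to 50 after it, for 3 of the 5 genes. These are F630040K05Rik at chr17:45734256-45734555 on the plus strand, AI661453 at chr17:47436389-47436688 on the plus strand and Gm29683 at chr7:70337803-70338102 on the minus strand. For Gm15283 and Gm9869, which had no such entry, the first 120 bases of the first exon are given from the GENCODE M21 transcripts (GRCm38), at chr12:73949666-73949785 and chr9:60838081-60838200, both on the minus strand. The Gm15283 bases are those of Gm15283-201, 1 of its 3 transcripts, which starts at 73949785, whereas the gene starts at 73949814. Each sequence runs 5′ to 3′ along its gene, and capitals mark a match to ACGTG or GCGTG on either strand.
F630040K05Rik promoter: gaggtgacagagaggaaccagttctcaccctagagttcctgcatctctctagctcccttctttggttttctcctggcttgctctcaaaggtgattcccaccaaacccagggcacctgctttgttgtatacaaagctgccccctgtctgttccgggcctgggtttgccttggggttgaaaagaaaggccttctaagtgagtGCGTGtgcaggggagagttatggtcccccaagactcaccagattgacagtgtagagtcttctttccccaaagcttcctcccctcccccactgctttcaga
AI661453 promoter: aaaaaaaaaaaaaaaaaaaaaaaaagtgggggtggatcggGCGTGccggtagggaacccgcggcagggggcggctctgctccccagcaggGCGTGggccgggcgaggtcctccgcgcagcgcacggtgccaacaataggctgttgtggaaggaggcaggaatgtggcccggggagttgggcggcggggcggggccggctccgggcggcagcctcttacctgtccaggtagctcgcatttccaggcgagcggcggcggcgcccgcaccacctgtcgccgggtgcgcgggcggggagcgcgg
Gm29683 promoter: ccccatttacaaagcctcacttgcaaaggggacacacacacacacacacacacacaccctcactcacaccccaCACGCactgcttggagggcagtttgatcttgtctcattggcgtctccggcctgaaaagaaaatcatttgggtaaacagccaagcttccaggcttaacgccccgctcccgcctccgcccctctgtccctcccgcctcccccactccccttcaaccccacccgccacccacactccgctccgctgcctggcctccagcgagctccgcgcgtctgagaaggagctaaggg
Gm15283 first exon: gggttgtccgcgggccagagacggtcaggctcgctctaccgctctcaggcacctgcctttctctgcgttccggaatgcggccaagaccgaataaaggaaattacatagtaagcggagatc
Gm9869 first exon: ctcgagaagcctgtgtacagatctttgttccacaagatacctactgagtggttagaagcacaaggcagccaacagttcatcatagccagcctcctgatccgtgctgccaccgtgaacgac
The F630040K05Rik promoter held 1 match, the AI661453 promoter 2 and the Gm29683 promoter 1. The same letters occurred in 14380 of 32851 RefSeq mouse promoters of that length (43.8%), so the matches describe these windows and single out no gene. TGTTTAC, the letters bound by forkhead factors such as Foxp1, was searched for on both strands. The Gm29683 promoter held 1 match, on the strand opposite to the one shown, and 3.65% of all promoters held a match.

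The libraries held 50076008 to 78346979 counts, and 3 counts, the limit that a count of 0 allows, were worth 0.0381 to 0.0596 CPM. CPM here is the TMM-scaled share of a library's counts, and the limit covers counting error only. Foxp1 itself was at 59.7, 60.8, 71.2 and 79.1 CPM in controls 1 to 4 and at 83.2 and 76.8 CPM in the libraries labelled Foxp1cKO 1 and 2. It was not lower in the latter (log2 fold change 0.24, SE 0.129, adjusted p = 0.468 by edgeR's quasi-likelihood test), and counts over the whole gene do not report on the floxed exons alone, so groups are named by their labels. Genes that mark radial glia summed to 2290 to 3213 CPM and genes that mark cortical neurons to 2798 to 5048 CPM in every library, with overlapping groups. Listed genes of mural cells, which wrap vessels, summed to 202 to 246 CPM in the controls and to 302 and 310 CPM in the libraries labelled Foxp1cKO. Red cell genes, the haemoglobins among them, summed to 1115 to 3615 CPM in the controls and to 3909 and 4200 CPM in the other libraries, and microglial genes to 25.3 to 40.6 CPM against 44.5 and 40.8 CPM. Endothelial genes overlapped, at 172 to 267 CPM in the controls and 240 and 294 CPM in the libraries labelled Foxp1cKO. Of the listed genes, both libraries labelled Foxp1cKO lay above all controls for 4 of 8 mural, 4 of 10 red cell, 5 of 10 microglial and 2 of 14 endothelial genes, beside 11.5% of all genes. Their part in the results below was not tested. In bulk tissue, more cells of a type and more RNA per cell cannot be told apart.

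F630040K05Rik showed the largest difference of the 5 genes. It was at 0.823, 1.17, 1.18 and 2.27 CPM in controls 1 to 4 and at 33.1 and 38.0 CPM in the libraries labelled Foxp1cKO 1 and 2. The lower of these was 14.6 times the highest control, and the group means differed 26.1 times (log2 fold change 4.69, SE 0.353). This lincRNA (ENSMUSG00000097727) lies at chr17:45734506-45788594 on the plus strand of mm10, overlaps no annotated gene and has 5327 bases of exon. Control 4, the control with the highest level of F630040K05Rik, was also the control with the highest sum of red cell genes. The same control had the highest sum of listed hypoxia response genes (5585 CPM, against 4032 to 4872 CPM in controls 1 to 3) and of radial glia genes. Whether these are related was not tested.

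Gm15283 came next. Its values were 0.743, 0.563, 0.659 and 0.876 CPM in the controls and 9.14 and 18.7 CPM in the libraries labelled Foxp1cKO (log2 fold change 4.29, SE 0.315). The groups were far apart, but the libraries labelled Foxp1cKO also differed from each other 2.05 times, against 1.15 times for F630040K05Rik. The antisense gene (ENSMUSG00000087700) lies at chr12:73843039-73949814 on the minus strand and has 2353 bases of exon.

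Gm9869 was the least abundant of the 5. It had 8, 12, 10 and 11 counts in controls 1 to 4 and 36 and 77 counts in the libraries labelled Foxp1cKO, or 0.129, 0.193, 0.137 and 0.140 CPM against 0.715 and 1.02 CPM. All of these were above the floor of 3 counts, and the groups did not overlap (log2 fold change 2.53, SE 0.309). This antisense gene (ENSMUSG00000052143) lies at chr9:60821552-60838200 on the minus strand, with 680 bases of exon in 2 blocks.

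AI661453 was at 0.727, 0.789, 0.617 and 0.521 CPM in the controls and at 2.56 and 3.76 CPM in the libraries labelled Foxp1cKO (log2 fold change 2.26, SE 0.263). The annotation classed it as protein-coding and not as noncoding. Its place (ENSMUSG00000034382) is chr17:47436615-47470638 on the plus strand, and its exons cover 5056 bases.

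Gm29683 did not separate the groups, so it is not called induced here. It was at 4.13, 5.01, 10.6 and 0.254 CPM in controls 1 to 4 and at 21.8 and 1.65 CPM in the libraries labelled Foxp1cKO 1 and 2. The first of these was above all controls, and the second was above control 4 and below the other controls. The controls themselves spread 41.8 times. The litter of the embryos is not in the labels, and its part in this spread was not tested. Its log2 fold change of 1.23 had an SE of 1.22, and it was -1.60 without the library labelled Foxp1cKO 1 and 2.10 without the library labelled Foxp1cKO 2. This lincRNA (ENSMUSG00000109097) lies at chr7:70178868-70337852 on the minus strand and has 3344 bases of exon.

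**Figure D1:**
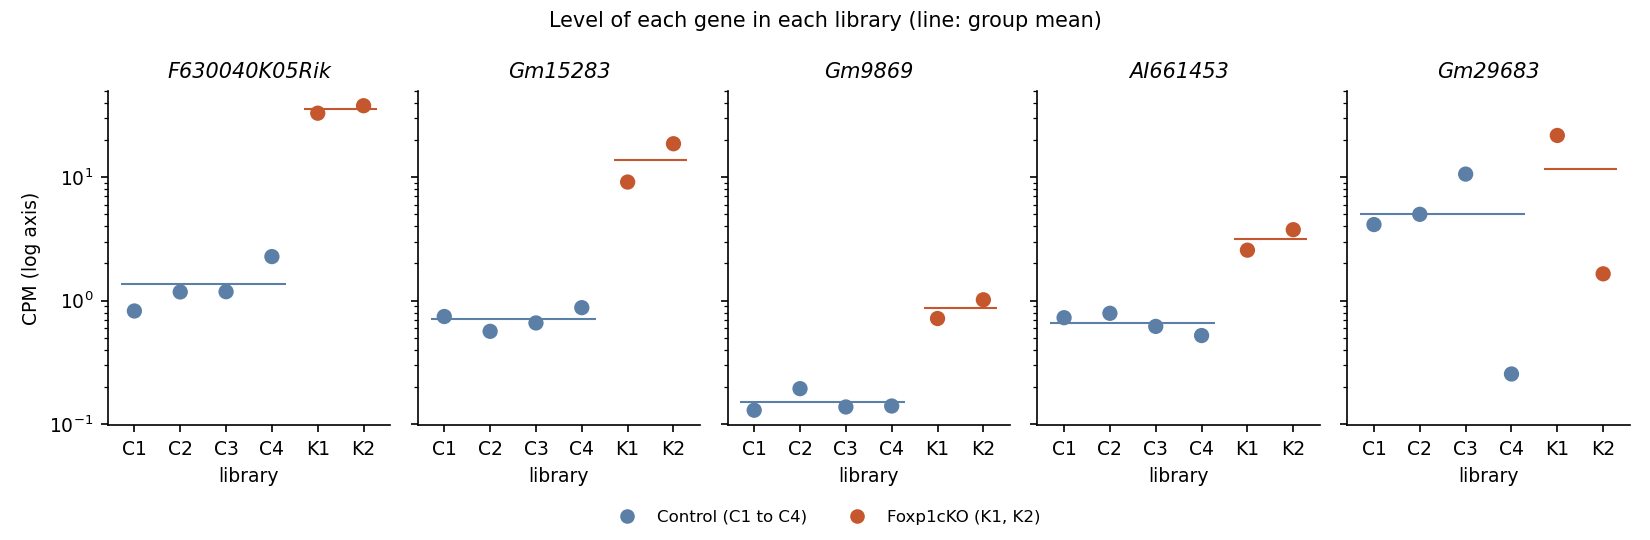
CPM on a log axis (vertical) for each of the 5 genes in each library (horizontal, C1 to C4 for the controls and K1 and K2 for the libraries labelled Foxp1cKO), with a point per library and a line at each group mean. In the first 4 panels K1 and K2 lie above every control, whereas in the Gm29683 panel K2 (1.65 CPM) lies between C4 (0.254 CPM) and C1 (4.13 CPM).

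Both libraries labelled Foxp1cKO lay above all controls for 4 of the 5 genes and for 11.5% of all genes. As the genes were chosen by this contrast, nothing is read from that count. Leaving out each library in turn kept the log2 fold change of F630040K05Rik between 4.50 and 5.06 and that of Gm15283 between 3.66 and 4.71. For Gm9869 it ran from 2.23 to 2.75 and for AI661453 from 1.93 to 2.50. Within the pair of libraries labelled Foxp1cKO, the second was the higher for these 4 genes, by 1.15 to 2.05 times. For Gm29683 it was at 0.0755 times the first.

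**Figure D2:**
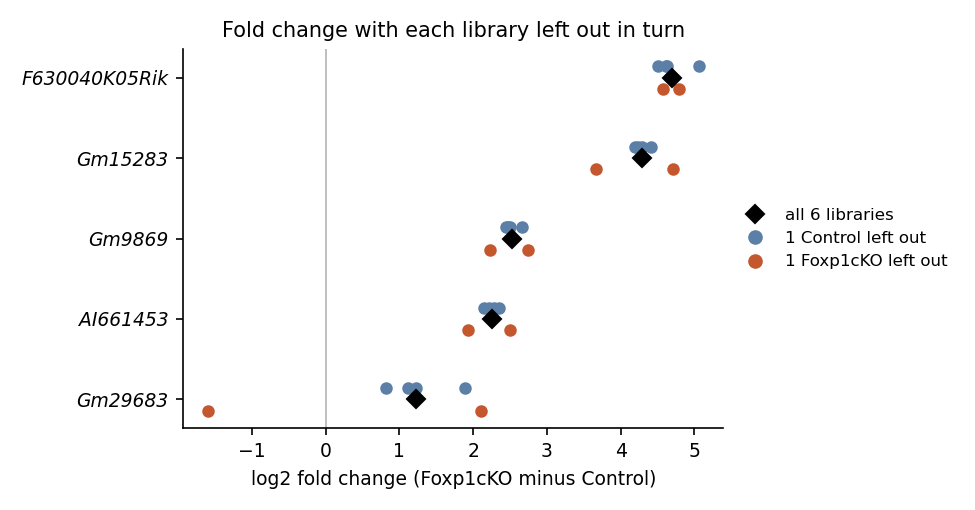
Log2 fold change (horizontal, Foxp1cKO minus Control) of each gene with all 6 libraries (diamond) and with 1 control (blue) or 1 library labelled Foxp1cKO (orange) left out. Gm29683 runs from -1.60 to 2.10, across 0, and the other 4 genes stay above it.

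Vegfa was the nearest gene of the hypoxia response list to F630040K05Rik, with the start sites 298 kb apart and a gap of 228 kb between the gene bodies. Vegfa (chr17:46016993-46032369, minus strand) was at 71.0, 64.9, 71.7 and 71.3 CPM in the controls and at 231 and 267 CPM in the libraries labelled Foxp1cKO. It rose in the latter (log2 fold change 1.84, SE 0.0840, adjusted p = 0.00165 by edgeR's quasi-likelihood test), and its adjusted p was 0.0808 with the replicate number as a block, a pairing that the labels do not give. Per kilobase of exon (RPKM), F630040K05Rik was at 0.933% to 2.56% of Vegfa in the controls and at 11.5% and 11.4% of it in the libraries labelled Foxp1cKO. Its difference between the groups was thus the larger of the pair, and its share of Vegfa was nearly equal in both of those libraries. The nearest coding gene, 1600014C23Rik, with a start 0.662 kb away, is not analysed here. Capn11, a calpain protease gene that also lies within 500 kb, spread from 0.468 to 18.2 CPM among the controls (log2 fold change 0.76, SE 1.53, adjusted p = 0.866 by edgeR, and -4.09 without the library labelled Foxp1cKO 1).

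Hif1a (chr12:73901375-73947530, plus strand) lies wholly within the span of Gm15283, on the other strand, and the start sites are 48.4 kb apart. Hif1a was at 58.2, 62.9, 56.5 and 65.6 CPM in the controls and at 66.8 and 59.8 CPM in the libraries labelled Foxp1cKO. No difference passed the test for Hif1a (log2 fold change 0.058, SE 0.0933, adjusted p = 0.83 by edgeR), whose groups overlapped. Per kilobase of exon, Gm15283 was at 2.25% to 3.35% of Hif1a in the controls and at 34.3% and 78.4% of it in the libraries labelled Foxp1cKO. Hif1a exons cover 330 of the 2353 exon bases of Gm15283. Gm49321, a second coding gene on the strand of Hif1a, overlaps Gm15283 without sharing an exon base. It was at 1.08, 1.32, 1.67 and 1.65 CPM against 1.43 and 0.883 CPM (log2 fold change -0.32, SE 0.308, adjusted p = 0.691 by edgeR). Prkch, which encodes a protein kinase C, had the highest fold change among the coding genes within 500 kb of Gm15283 (log2 fold change 0.50, SE 0.246, adjusted p = 0.432 by edgeR). Hif1a is not on the hypoxia response list, whose nearest gene to Gm15283 is Egln3, 19746 kb away.

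The libraries were made with a stranded kit, but the strand setting of the counting is not given in the sources used here. Reads of Gm15283 and of unspliced Hif1a RNA could not be told apart if strand was ignored, and the same holds for Gm9869 and Uaca. It also holds for AI661453 and its neighbour 1700001C19Rik within the 762 bases where they overlap on opposite strands. A union count without strand would set aside as ambiguous the reads of a gene lying wholly under exons of the other strand. In GENCODE M21, 34 genes of the table have all of their exon bases under such exons. The highest mean among them was 3780 counts. The table had been filtered on low counts, and such genes outside it were not counted. M21 is a later release than the one used for counting, in which some of these overlaps may be missing.

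Gm9869 lies inside the span of Uaca, on the other strand, with all its exons in Uaca introns and the start sites 43.7 kb apart. Uaca, which encodes a coiled-coil protein with ankyrin repeats, was at 60.0, 64.5, 44.7 and 57.8 CPM in the controls and at 85.6 and 75.7 CPM in the libraries labelled Foxp1cKO. Both of the latter were above all controls, and the difference did not pass the test after adjustment (log2 fold change 0.51, SE 0.146, adjusted p = 0.279 by edgeR). Per kilobase of exon, Gm9869 was at 1.84% to 2.62% of Uaca in the controls and at 7.14% and 11.5% of it in the libraries labelled Foxp1cKO. Its nearest gene of the hypoxia response list was Car12, a carbonic anhydrase gene, 5875 kb away.

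AI661453 is on the chromosome of Vegfa but 1404 kb from its start. Its closer neighbour is 1700001C19Rik (chr17:47412734-47437376, minus strand), a coding gene that starts 0.761 kb away, points the other way and shares 180 exon bases with it. That gene was at 0.258, 0.338, 0.233 and 0.140 CPM in the controls and at 0.536 and 0.949 CPM in the libraries labelled Foxp1cKO. Its groups did not overlap, but the difference did not pass the test (log2 fold change 1.63, SE 0.406, adjusted p = 0.242 by edgeR). Ranked by level, the 6 libraries stood in the same order for AI661453 and 1700001C19Rik. The latter had only 16, 21, 17 and 11 counts in controls 1 to 4, and 27 and 72 in the libraries labelled Foxp1cKO. Its order among the controls thus rests on few counts, and AI661453 was chosen by the difference between the groups. Per kilobase of exon, AI661453 was at 87.5% to 140% of 1700001C19Rik in the controls and at 179% and 148% in the other libraries. Bysl, a ribosome assembly factor gene 175 kb away, was at 41.9, 45.4, 42.0 and 39.1 CPM in the controls and at 31.9 and 30.1 CPM in the libraries labelled Foxp1cKO. Its groups did not overlap (log2 fold change -0.44, SE 0.0882, adjusted p = 0.219 by edgeR and 0.00522 by DESeq2).

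**Figure D3:**
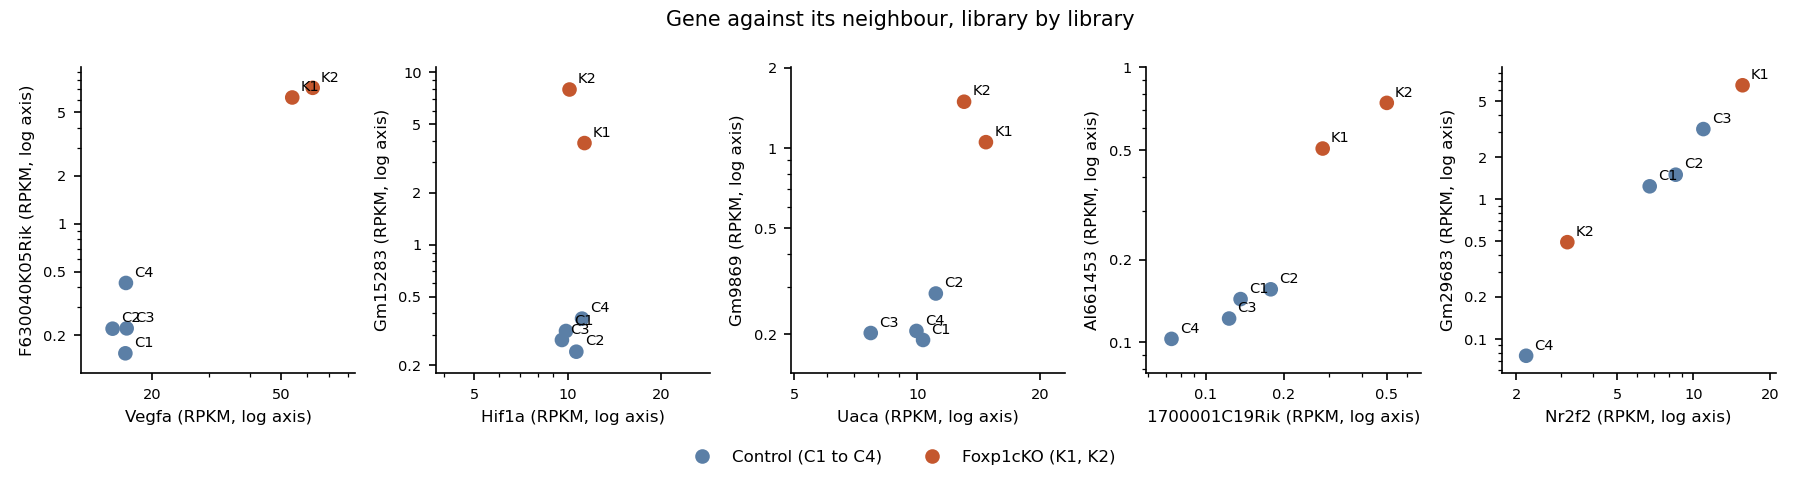
Level of each gene (vertical, RPKM, log axis) against that of its neighbour (horizontal, RPKM, log axis), with 1 point per library (C1 to C4 controls, K1 and K2 libraries labelled Foxp1cKO). Along the Hif1a axis the points of both groups overlap while Gm15283 separates them, and along the Nr2f2 axis all 6 points rise together with K2 between C4 and C1.

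Over the 5 genes, 41 coding genes of the table had a start site within 500 kb. Of these, 1, Vegfa, passed the threshold, against 0.152% of all 17068 genes. For some of the 5 genes a position near Vegfa or Hif1a was part of the choice, so nothing is read from that 1. Of the other 40, 0 passed by edgeR, 4 had an unadjusted p under 0.05 (13% of all genes did), 1 passed by DESeq2 and 0 by limma. The median log2 fold change of the 41 was 0.041, beside -0.0044 over all genes, and 36 of them had an absolute log2 fold change under 0.5. Both libraries labelled Foxp1cKO lay above all controls for 5 of the 41 and below them for 3, beside 11.5% and 13.1% of all genes.

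**Figure D4:**
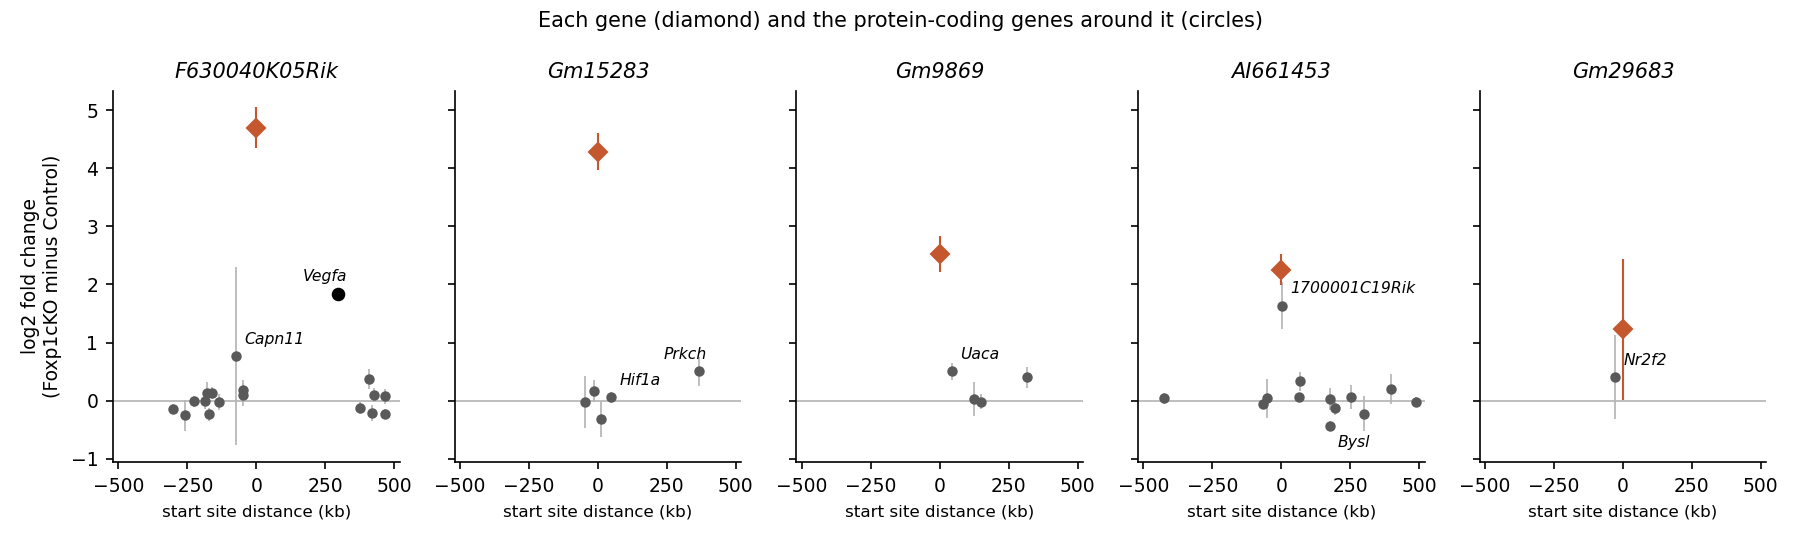
Log2 fold change (vertical, Foxp1cKO minus Control, bars are SE) of each gene (orange diamond) and of the coding genes within 500 kb (circles, black where past the threshold) against the distance between start sites in kb (horizontal). Vegfa, at 1.84, is the only neighbour past the threshold, and 36 of the 41 neighbours lie within 0.5 of 0.

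Gm29683 is 28.9 kb from Nr2f2, the start sites being on the same strand of chromosome 7, and Nr2f2 was the only coding gene of the table within 500 kb. Nr2f2 encodes the nuclear receptor COUP-TFII, known in the forebrain for its place in ventral and caudal territories and in the veins for vessel identity. It was at 58.0, 73.4, 94.3 and 18.9 CPM in the controls and at 135 and 27.4 CPM in the libraries labelled Foxp1cKO (log2 fold change 0.40, SE 0.717, adjusted p = 0.847 by edgeR). The fold change was -1.16 without the library labelled Foxp1cKO 1 and -0.092 with the replicate number as a block. Nr2f2 and Gm29683 put the 6 libraries in the same order, lowest in control 4 and highest in the library labelled Foxp1cKO 1. Per kilobase of exon, Gm29683 was at 3.47% to 29.0% of Nr2f2 in the controls and at 41.8% and 15.5% of it in the other libraries.

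By the likeness of the pattern, taken as the root mean square difference of mean-centred log2 CPM over the 6 libraries (0 for the same pattern), the 3 genes most like Gm29683 were Gm44812 (0.580), Gm35842 (0.597) and B130024G19Rik (0.898). All 3 were noncoding, lay on chromosome 7 and had Nr2f2 as their nearest coding gene, 208, 182 and 1.83 kb away by start site. B130024G19Rik was at 4.36, 7.03, 10.2 and 1.5 CPM in the controls and at 18.0 and 2.77 CPM in the libraries labelled Foxp1cKO. Nr2f2 itself ranked 8 among 16994 genes (1.07). Control 4 had 3 counts of Gm44812 and 1 count of Gm35842, so their lowest values are at or under the floor. Listed genes of ventral origin summed to 275, 411, 924 and 310 CPM in controls 1 to 4 and to 605 and 442 CPM in the libraries labelled Foxp1cKO, an order that differed from that of Nr2f2.

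**Figure D5:**
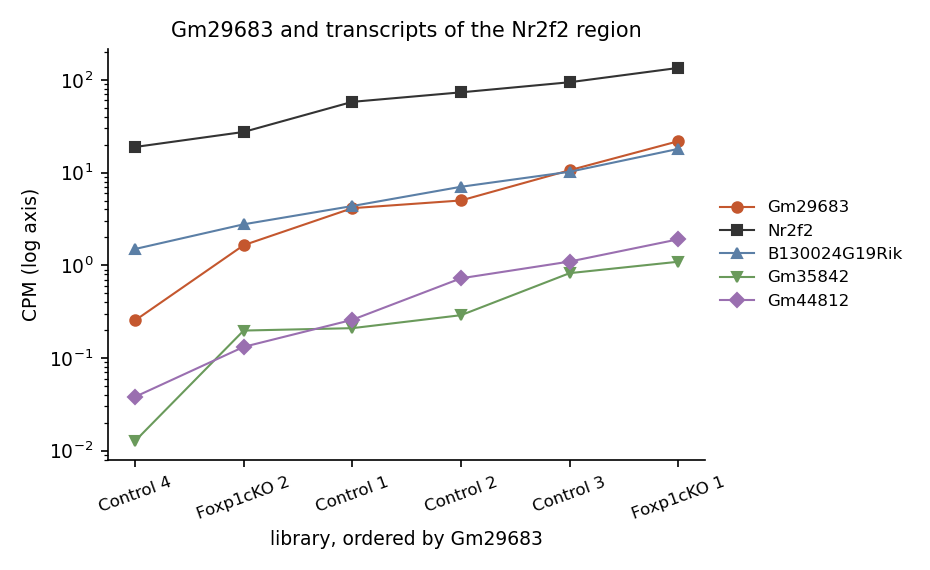
CPM on a log axis (vertical) of Gm29683, Nr2f2 and the 3 noncoding genes most like Gm29683, in the 6 libraries (horizontal) ordered by Gm29683; lines join the points of 1 gene. Each gene is lowest in control 4 and highest in the library labelled Foxp1cKO 1 (Nr2f2 18.9 and 135 CPM).

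The other 4 genes were most like each other or like genes at other places of the genome. Gm15283 was the gene most like F630040K05Rik, at 0.518, although the first lies on chromosome 12 and the second on chromosome 17. Next for F630040K05Rik came Esm1 (0.877), a secreted product of endothelial cells, and Slc16a3 (0.902), the lactate exporter MCT4. For Gm15283 the next were the antisense gene Gm16754 (0.573) and Esm1 (0.607). Ciart, a repressor of the circadian clock, was the most like Gm9869 (0.101) and the most like AI661453 (0.160), and these were at 0.172 of each other. Tnfrsf9 (0.220) followed for Gm9869, and for AI661453 the pseudogene Rps3a2 (0.221), whose reads are uncertain because of its near-identical parent. The 6 libraries are shared by all these patterns, which were taken over the samples that chose the genes, and a gene that separates the groups by a like amount comes close for that reason.

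All 46 genes of the hypoxia response list were in the table. The list was drawn up with earlier results of these data known, and it includes the clock repressor Ciart. Its counts are therefore descriptions and no test of a hypoxia response. Of the 46, 11 passed the threshold with a higher level in the libraries labelled Foxp1cKO and 0 with a lower level. Of all genes, 0.152% passed it with a higher level. By sign alone, 44 of the 46 were higher and 2 lower. Both libraries labelled Foxp1cKO lay above all controls for 39 of the 46, beside 11.5% of all genes. The number past the threshold was 37 by DESeq2, 3 without control 1, 1 without control 2, 10 without control 3 and 23 without control 4. With the replicate number as a block it was 0, and with the numbers crossed 40, and the labels give neither pairing a basis. In a block fit controls 3 and 4 have no partner and add nothing to the group difference, so these counts do not measure pairing alone. The median log2 fold change of the list was 1.14. F630040K05Rik and Gm15283 differed by more than any gene of the list, and Gm9869 and AI661453 by amounts within its upper range. As these genes were chosen by this contrast, nothing is read from that order. In order of size the list was led by Slc16a3 (log2 fold change 2.89), the mitophagy gene Bnip3 (2.53), Adm (2.43), which encodes the vasodilator adrenomedullin, and Ciart (2.36). Pdk1 (2.16), which keeps pyruvate out of mitochondria, the secreted stanniocalcin Stc2 (2.14), Vegfa (1.84) and Egln3 (1.72) followed. By edgeR's quasi-likelihood test the adjusted p was 0.00843 for Bnip3, 0.0131 for Adm, 0.0307 for Ciart and 0.0177 for Pdk1. It was 0.0658 for Slc16a3, 0.0758 for Stc2 and 0.0758 for Egln3, which did not pass.

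Of the 10 genes of the HIF pathway itself, 0 passed by edgeR, 3 had an unadjusted p under 0.05 (13% of all genes did), 2 passed by DESeq2 and 0 by limma, and their median log2 fold change was 0.044. Egln1 had a log2 fold change of 0.54 (SE 0.0769) and Hif3a, a further alpha subunit, of 0.80 (SE 0.270), and both libraries labelled Foxp1cKO were above all controls for these and for Egln3, 3 of the 10. They were below all controls for 1, Hif1an, the asparagine hydroxylase that restrains HIF, at 93.1 and 93.4 CPM against 98.2 to 100.7 CPM. Of all genes, 11.5% lay above and 13.1% below all controls. Hif1a was among those with overlapping groups.

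Nearness to a hypoxia response gene was then examined in the other noncoding genes. With the genes described here left out, 79 noncoding genes of the table started within 500 kb of a gene of that list, some of them near Ciart. Of these, 0 passed the threshold by edgeR, 10 had an unadjusted p under 0.05, 3 passed by DESeq2 and 0 by limma. Of the 2046 other noncoding genes, 1 passed by edgeR, 206 had an unadjusted p under 0.05, 41 passed by DESeq2 and 2 by limma, and 13% of all genes had an unadjusted p under 0.05. Both libraries labelled Foxp1cKO lay above all controls for 18 of the 79 (22.8%) and for 269 of the 2046 others (13.1%), and below them for 10 (12.7%) and 183 (8.94%). The median log2 fold change was 0.10 for the 79 and 0.059 for the others. Over all 2129 noncoding genes of the table, 13.6% lay above and 9.07% below all controls.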

How the data were processed

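Lateral cortex RNA was made by the authors into stranded libraries, and reads were aligned to mm10 (STAR), assigned to genes (HTSeq 0.9.1, union) and filtered for low counts. The deposited counts are whole numbers, not normalized, and the deposited VST values of the same genes (DESeq2 1.30.1) are on a log2-like scale. Groups and replicate numbers came from the sample labels. No label gives the litter, a term of the authors' model, so it was left out.

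Counts were tested in R 4.3.3 with edgeR 4.0.16 (quasi-likelihood, TMM, group alone), with Benjamini-Hochberg adjustment over 17068 genes and a threshold of 0.05. Log2 CPM used a prior count of 2. RPKM divided CPM by the exon length in GENCODE M21, in which 17047 identifiers were found. The fit was tested on simulated data. DESeq2 1.42.0, limma 3.58.1 on the VST values, other scalings, a filter on low counts, a replicate block, windows of 250 and 1000 kb, a prior count of 0.5 and each library left out in turn were alternatives. The edgeR fit first used the newer dispersion estimate (27 genes past the threshold) and was changed to the package default (26 genes) after results were seen. The former was kept as an alternative, and a crossed replicate block was added after the data were seen. Totals ran from 50076008 to 78346979 counts, and intervals and floors cover counting error only. With 4 libraries against 2, an exact two-sided permutation test cannot go below 0.133, so none was used.

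The genes described and the lists were chosen with earlier results of these data known. Named genes are the 5 genes, Vegfa, Hif1a, Foxp1, genes overlapping the 5, coding genes within 500 kb, genes of both hypoxia lists (values for the 8 largest changes of the response list) and the 3 most alike genes of each, with a mean of at least 10 counts. From the HIF pathway, Egln1, Hif3a and Hif1an were named after their values were seen. Neighbours given singly were likewise picked among those the rule allows.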

Additional observations from a re-analysis of the deposited data

Results flagged for a closer look

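In the 24 genes whose 4 controls were examined for a sample far from the others, 3 controls stood apart by Dixon's criterion at 95%, where chance gives about 1 in 20 groups. Gm9869 was at 0.193 CPM in control 2, above the other controls at 0.129 to 0.140 CPM, a difference of 12 counts against 8 to 11. Vegfa was at 64.9 CPM in control 2, below the other controls at 71.0 to 71.7 CPM. Slc16a3 was at 20.9 CPM in control 4, above the other controls at 8.08 to 10.2 CPM and below both libraries labelled Foxp1cKO at 69.9 and 113 CPM.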

How the results depend on the processing

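The number of genes past the threshold was 26, all higher, and 24 to 27 under limma, both other scalings, the filter on low counts and the newer dispersion estimate. It was 507 with DESeq2 and 0 with the replicate block (3027 at an unadjusted p under 0.05), and 2 to 96 with a control left out, highest without control 4. Same-numbered libraries came from different embryos, and their deviations correlated at -0.097. The crossed value is 0.097 by construction, so this correlation cannot tell whether they shared a litter. Controls 3 and 4 have no partner in the block and add nothing to the group difference there. With the replicate block, 0 neighbours and 0 genes of the hypoxia response list passed. The adjusted p of Vegfa was 0.0808 by edgeR, and Nr2f2 turned to -0.092. With the numbers crossed, a pairing tried after seeing the data, 1301 genes, 3 neighbours and 40 genes of the hypoxia response list passed, so the block results depend on a numbering without known meaning. On the VST scale, which compresses low values by construction, the log2 differences were 3.26 for F630040K05Rik, 2.33 for Gm15283, 0.57 for Gm9869 and 0.93 for AI661453. With a library left out, the log2 fold changes ran from 4.50 to 5.06 for F630040K05Rik, 3.66 to 4.71 for Gm15283, 2.23 to 2.75 for Gm9869, 1.93 to 2.50 for AI661453 and -1.60 to 2.10 for Gm29683. Without the library labelled Foxp1cKO 1, Hif1a was at -0.024, Nr2f2 at -1.16 and Capn11 at -4.09, and their highest values with a library left out were 0.12, 1.12 and 2.05. Neighbours past the threshold numbered 2 with DESeq2, by which Bysl passed (adjusted p = 0.00522). They numbered 0 within 250 kb, where Vegfa falls outside the window, and 1 with each control left out. The hypoxia response list had 37 calls with DESeq2 and 1 to 23 with a control left out. The cause of these shifts was not tested, apart from the window and the VST scale. The neighbours named singly were recomputed under each alternative, and the others only within the counts. Depth limits Gm9869 most, with 8 to 12 counts per control.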
